A study of Mus musculus with 12 samples.

Results

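The BMP ligands and BMP target genes described here are 10 genes of the 46517 listed for these cells: the ligands *Bmp4*, *Bmp2* and *Bmp7*, the Id genes *Id1*, *Id2* and *Id3*, the signal inhibitors *Bambi* and *Smad6*, and the homeobox genes *Msx1* and *Msx2*. They were taken as a fixed list of gene symbols, and all 10 were among the 15673 genes with more than 1 CPM (counts scaled to the library size with TMM factors) in at least 1 sample. The list was selected on earlier results of the same data, namely a *Bmp4* level that was higher in KO cells at day 0 and lower at day 3, and the question asked of it was whether the Id and Msx genes followed *Bmp4*. The KO against WT values of the 10 genes are therefore given as a description, with no test. Tests are given for the change from day 0 to day 3 in the 9 genes other than *Bmp4*, and for 56 other genes of the pathway. The choice of the 10 did not name those 56 genes. It did not name the change over time as a comparison either, but it used the values of the same 4 groups. Members and lists were still chosen with earlier results of these data known. The tests on the 9 genes use the same libraries as the selected differences, so their p-values are not independent of the choice. They describe the 9 genes and are no separate support for the selected pattern.

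Polyadenylated RNA was sequenced from 12 samples of mouse ESCs, with 3 replicates in each of 4 groups: WT day 0, *Meteor* KO day 0, WT day 3 and *Meteor* KO day 3. All 12 samples came from an ESC line of C57BL/6 strain background in which an EGFP cassette sits at the start site of *Eomes*, so the WT controls carry the reporter too. The KO cells lack the *Meteor* locus, an enhancer with the start site of its long noncoding RNA, removed with a Cas9 nickase and expanded from picked clones. How many clones the KO libraries stand for is not given in the sources used here. Day 0 cells were undifferentiated ESCs kept on mouse embryonic fibroblast feeders, and day 3 cells were embryoid bodies, cell aggregates formed in hanging drops in a cardiac differentiation medium. The labels do not say whether replicates were separate cultures, so the p-values measure the spread between these samples only, which may be technical.

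Bone morphogenetic proteins are secreted ligands of the TGF-beta superfamily. A ligand dimer joins type I and type II receptor kinases, which phosphorylate SMAD1, SMAD5 and SMAD9; these bind SMAD4, enter the nucleus and act on target genes, among them the Id genes. *Smad6* and *Bambi* are targets that dampen the signal, and antagonists such as Noggin and Chordin hold ligands outside the cell. In mouse ESCs BMP signals acting through Id genes help to keep cells undifferentiated together with LIF, and in the early embryo BMP4 from the extraembryonic ectoderm is needed for mesoderm to form.

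The proximal promoters of the target genes are shown because the question concerns genes that share an upstream signal. RefSeq windows on GRCm38.p6, from 250 bases before to 50 bases after the start, were examined for 6 of the 10 genes (*Bmp4*, *Id2*, *Id3*, *Smad6*, *Msx1* and *Msx2*). Windows of *Bmp2*, *Bmp7*, *Id1* and *Bambi* were not examined, so the motif matches given here do not cover these genes. Capitals mark GGCGCC, a palindrome bound by BMP-activated SMADs, and GTCTG on either strand, which contains the GTCT core that SMAD proteins bind. The 4 windows of Id and Msx genes are given 5′ to 3′ in the direction of transcription.
*Id2*, chr12:25096043-25096342, minus strand: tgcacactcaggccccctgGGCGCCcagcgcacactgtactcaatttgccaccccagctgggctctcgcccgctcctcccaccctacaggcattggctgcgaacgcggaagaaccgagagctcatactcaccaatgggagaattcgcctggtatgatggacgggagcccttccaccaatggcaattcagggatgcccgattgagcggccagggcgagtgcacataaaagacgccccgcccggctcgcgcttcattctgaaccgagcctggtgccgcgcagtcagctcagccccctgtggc
*Id3*, chr4:136143572-136143871, plus strand: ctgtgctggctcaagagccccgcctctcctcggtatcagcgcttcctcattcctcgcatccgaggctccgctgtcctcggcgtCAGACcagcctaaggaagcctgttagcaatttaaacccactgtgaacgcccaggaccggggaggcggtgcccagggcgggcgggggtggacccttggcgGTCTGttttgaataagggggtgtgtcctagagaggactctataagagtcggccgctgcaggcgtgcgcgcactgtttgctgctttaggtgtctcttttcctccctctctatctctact
*Msx1*, chr5:37824536-37824835, minus strand: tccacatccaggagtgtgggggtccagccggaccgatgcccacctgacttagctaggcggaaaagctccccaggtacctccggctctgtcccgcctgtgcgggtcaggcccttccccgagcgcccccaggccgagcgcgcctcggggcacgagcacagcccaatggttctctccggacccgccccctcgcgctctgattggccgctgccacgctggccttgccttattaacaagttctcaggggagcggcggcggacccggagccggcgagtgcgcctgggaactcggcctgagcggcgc
*Msx2*, chr13:53472731-53473030, minus strand: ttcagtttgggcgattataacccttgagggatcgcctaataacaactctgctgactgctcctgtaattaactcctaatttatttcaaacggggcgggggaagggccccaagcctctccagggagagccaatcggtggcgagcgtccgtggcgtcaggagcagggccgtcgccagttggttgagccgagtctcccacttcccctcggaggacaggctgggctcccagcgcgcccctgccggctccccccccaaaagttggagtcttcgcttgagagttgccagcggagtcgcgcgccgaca

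The *Id2* window held 1 GGCGCC with its first base at -231 from the start, a match found in 11.9% of all 32817 RefSeq promoter windows. The *Id3* window held 2 matches to GTCTG at -167 and -68, of which the first lies on the other strand, and 49.6% of all windows held at least 1. The longer arrangement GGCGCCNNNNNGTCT, which contains the first motif, stood in none of the 6 windows and in 0.0731% of all windows. These are matches of letters in a short window and nothing was measured at them here.

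Several facts of the libraries bear on what follows. Between 17455927 and 23910943 reads per sample fell on genes, so 1 read was worth 0.0416 to 0.0569 CPM and 3 reads 0.125 to 0.171 CPM. Counts on the annotated genes of the deleted locus were 0 or 1 in each of the 6 KO libraries and 11 to 112 in the WT libraries. The 7 pluripotency markers summed to 3071 to 3592 CPM in WT and 4363 to 4676 CPM in KO at day 0, and to 628 to 1200 CPM at day 3 in both, and the 7 markers of primitive streak and early mesoderm to 864 to 1724 CPM in WT day 3 cells against 74.6 to 149.96 CPM in KO day 3 cells. A pair of WT libraries stood apart from their groups. WT day 0 replicate 3 had 77.4 CPM of *T*, a primitive streak gene, against 4.64 and 6.42 CPM in the other WT day 0 libraries. WT day 3 replicate 3 had 308 CPM of summed endoderm markers against 70.2 and 75.0, with 101 CPM of *Gata4* against 15.3 and 12.2. Results that rest on either library are given with and without it.

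*Bmp4* (ENSMUSG00000021835), the ligand the question starts from, was at 13.3, 14.1 and 22.2 CPM in the 3 WT day 0 libraries and at 83.8, 69.7 and 120 CPM in the KO day 0 libraries. It was at 4.34, 7.89 and 55.1 CPM in WT day 3 and at 4.85, 4.78 and 5.12 CPM in KO day 3. The KO libraries were all above the WT libraries at day 0, whereas at day 3 the groups overlapped and only WT replicate 3 stood well above KO. The mean was 5.52 times as high in KO at day 0, a log2 difference of 2.48 ± 0.54 (SE, n = 3 per group), and 2.26 ± 0.65 without WT day 0 replicate 3. At day 3 the log2 difference was -1.68 ± 0.60 with all samples and -0.47 ± 0.25 without WT day 3 replicate 3, and KO was above WT in 1 of the 3 pairs of the same replicate number. The lower *Bmp4* level of KO at day 3 thus rested on 1 WT library. From day 0 to day 3 the *Bmp4* mean of KO cells went from 91.3 to 4.92 CPM, 18.6 times lower, with no overlap, whereas that of WT cells went from 16.6 to 22.4 CPM with overlapping values, a log2 difference of -0.01 ± 0.55 that was -1.24 ± 0.25 without WT day 3 replicate 3.

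**Figure D1:**
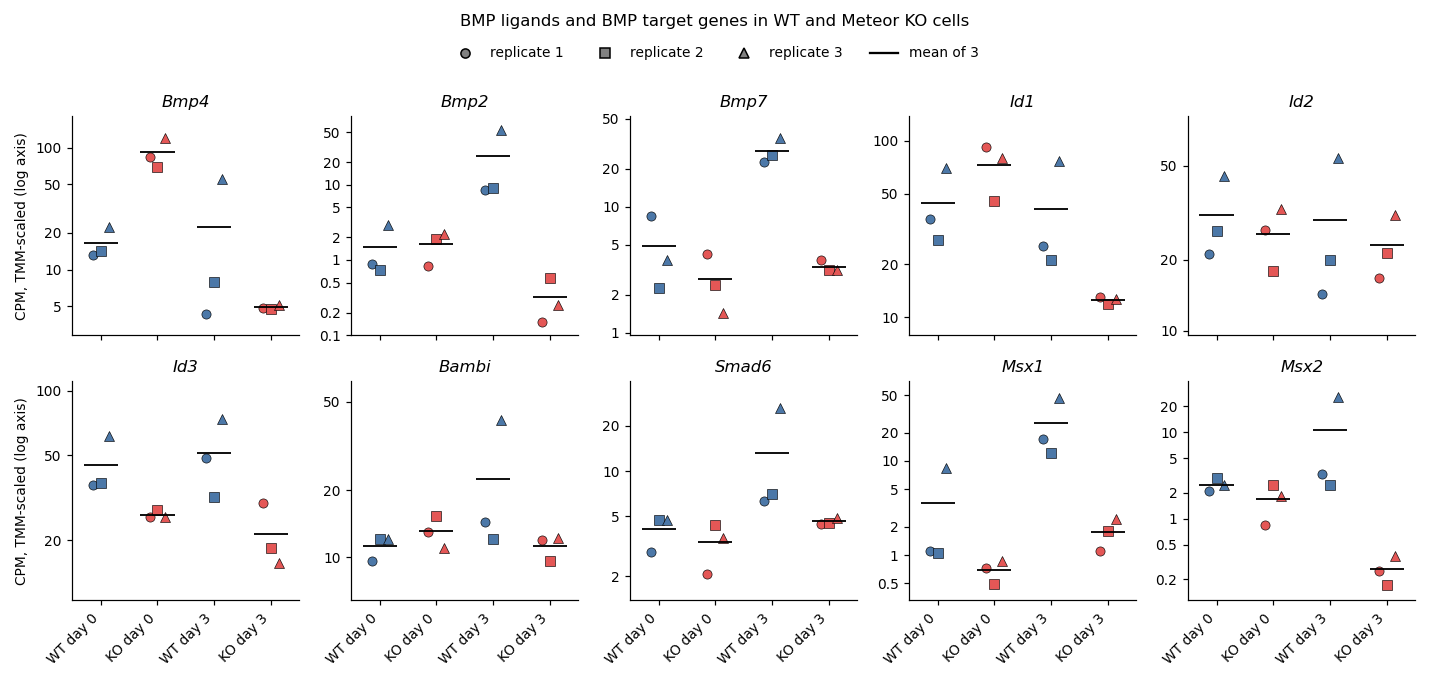
CPM scaled by TMM (log axis, its own range for each gene) of the 10 genes in every library, with WT in blue, KO in red, the replicate number as the symbol and the group mean as a line. *Bmp4* was highest in the 3 KO day 0 libraries (69.7 to 120 CPM), and WT day 3 replicate 3 was the highest WT day 3 library for each of the 10 genes.

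In bulk RNA a lower level in each cell and a smaller number of expressing cells cannot be told apart, and day 0 libraries also hold feeder RNA. The 10 feeder fibroblast markers summed to 81.4, 249 and 125 CPM in WT day 0 and to 121, 331 and 206 CPM in KO day 0, which is 1.49, 1.33 and 1.65 times as much in KO by replicate number. Of the 8 that were tested, 0 passed the test of KO against WT at day 0 (edgeR), with 3 higher and 0 lower at an unadjusted p of 0.05, 1 called by DESeq2 and 0 by limma, and *Lum* and *Fap* were at or below 0.39 CPM in each library. In the same order of libraries as the feeder sums, *Bmp4* was at 13.3, 14.1 and 22.2 CPM in WT day 0 and at 83.8, 69.7 and 120 CPM in KO day 0. The 9 endoderm markers summed to 20.0 to 66.1 CPM in WT and 22.9 to 66.6 CPM in KO at day 0. The pluripotency markers were 1.27, 1.40 and 1.42 times as high in KO at day 0 by replicate number. Of the 7, 2 were called higher (*Esrrb* and *Tfcp2l1*) and 0 lower in edgeR, beside 9.56% and 10.9% of all tested genes. The 6 neural and ectoderm markers summed to 146, 162 and 250 CPM in WT day 0 and to 70.2, 75.02 and 98.4 CPM in KO day 0, without overlap. Of these 3 were called lower (*Otx2*, *Pax6* and *Nes*), beside 10.9% of all tested genes. *Gbx2*, *Sox1* and *Neurog3* went the other way, with means of 19.7, 1.88 and 0.51 CPM in WT and 28.8, 4.50 and 2.04 CPM in KO. Of the 6, 0 were called higher in edgeR and in limma, 1 was by DESeq2, and 2 were higher at an unadjusted p of 0.05 in edgeR. At day 3 the sum of the 6 was 264 to 340 CPM in WT and 318 to 358 CPM in KO. There 3 markers were called higher and 1 lower, beside 14.3% and 16.7% of all tested genes. The part of these shifts in the day 0 differences of *Bmp4* and of the Id and Msx genes was not tested.

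*Bmp2*, a close relative of *Bmp4*, was low at day 0, with 0.87, 0.73 and 2.91 CPM in WT and 0.84, 1.87 and 2.20 CPM in KO. At day 3 it was at 8.53, 9.002 and 54.02 CPM in WT and at 0.15, 0.57 and 0.25 CPM in KO, the latter from 3 to 10 reads. The groups overlapped at day 0 and were fully separate at day 3, where the log2 difference was -5.91 ± 0.62, and -5.20 ± 0.54 without WT replicate 3. *Bmp7*, a ligand of another subgroup, was at 8.46, 2.24 and 3.80 CPM in WT day 0 and 4.20, 2.37 and 1.43 CPM in KO day 0. It was at 22.7, 25.6 and 34.7 CPM in WT day 3 and 3.75, 3.13 and 3.16 CPM in KO day 3. Of the 3 ligands it had the tightest WT values at day 3, and the KO mean there was 8.26 times lower, with a log2 difference of -3.10 ± 0.41. Day 0 gave -0.81 ± 0.41 with overlapping values.

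The Id genes encode helix-loop-helix proteins that lack a DNA-binding region and hold other helix-loop-helix factors inactive. *Id1* was at 36.2, 27.3 and 70.4 CPM in WT day 0 and 91.8, 45.7 and 79.9 CPM in KO day 0. It was at 25.4, 21.04 and 77.1 CPM in WT day 3 and 13.05, 11.8 and 12.7 CPM in KO day 3. *Id1* was higher in KO in 3 of 3 pairs at day 0, yet the groups overlapped because WT replicate 3 was above KO replicate 2. The log2 difference was 0.78 ± 0.32 at day 0. Without WT day 0 replicate 3 it was 0.92 ± 0.38 and the groups did not overlap. At day 3 the log2 difference was -1.51 ± 0.34, and every KO library was below every WT library. That day 3 value was -1.05 ± 0.27 without WT day 3 replicate 3.

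*Id3* went the other way at day 0, with 36.4, 36.9 and 61.5 CPM in WT and 25.7, 27.6 and 25.6 CPM in KO. The KO values were close to each other and all below WT, with a log2 difference of -0.73 ± 0.30. That difference was -0.52 ± 0.33 without WT day 0 replicate 3. At day 3 *Id3* was at 48.6, 31.7 and 73.8 CPM in WT and 29.9, 18.3 and 15.7 CPM in KO, again without overlap. The log2 difference was -1.22 ± 0.30, and -0.93 ± 0.29 without WT day 3 replicate 3. *Id2* was at 21.1, 26.5 and 45.1 CPM in WT day 0, 26.7, 17.9 and 32.6 CPM in KO day 0, 14.3, 19.8 and 54.02 CPM in WT day 3 and 16.7, 21.3 and 31.0 CPM in KO day 3. Its groups overlapped at both days, with log2 differences of -0.20 ± 0.25 and -0.21 ± 0.25. Without WT day 3 replicate 3 the day 3 value turned to 0.15 ± 0.22, and KO was above WT in 2 of the 3 pairs at that day. The 3 Id genes thus differed in direction at day 0, where *Id1* was the one with the higher mean in KO.

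*Msx1* and *Msx2* encode homeobox repressors that are expressed in tissues receiving BMP signals. *Msx1* was at 1.09, 1.04 and 8.51 CPM in WT day 0 and at 0.73, 0.50 and 0.87 CPM in KO day 0. It was at 17.2, 12.2 and 46.9 CPM in WT day 3 and at 1.10, 1.82 and 2.41 CPM in KO day 3. KO was below WT without overlap at both days, with log2 differences of -1.95 ± 0.54 and -3.67 ± 0.47. The day 0 value was -1.05 ± 0.44 without WT replicate 3, the library that also had the high *T* level, while the day 3 value was -3.65 ± 0.53 without WT replicate 3 of that day.

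*Msx2* was at 2.07, 2.92 and 2.43 CPM in WT day 0, 0.84, 2.43 and 1.84 CPM in KO day 0, 3.26, 2.45 and 25.9 CPM in WT day 3 and 0.25, 0.17 and 0.37 CPM in KO day 3. The KO day 3 values come from 3 to 9 reads, and all were below WT. The log2 difference was -0.63 ± 0.67 at day 0 with overlap, or -1.13 ± 0.69 without WT day 0 replicate 3. It was -4.91 ± 0.82 at day 3, or -3.47 ± 0.49 without WT day 3 replicate 3. *Msx2* was thus the target with the largest difference at day 3 when all libraries were used.

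The remaining 2 members encode inhibitors of the signal. *Smad6*, which encodes an inhibitory SMAD, was at 2.89, 4.70 and 4.76 CPM in WT day 0, 2.07, 4.41 and 3.58 CPM in KO day 0, 6.30, 7.08 and 26.4 CPM in WT day 3 and 4.45, 4.55 and 4.91 CPM in KO day 3. The groups overlapped at day 0, and KO was below WT at day 3 with a log2 difference of -1.301 ± 0.40, which was -0.60 ± 0.26 without WT day 3 replicate 3. *Bambi*, a receptor-like protein without a kinase domain, was at 9.61, 12.1 and 12.1 CPM in WT day 0, 12.9, 15.3 and 11.03 CPM in KO day 0, 14.5, 12.1 and 41.3 CPM in WT day 3 and 11.9, 9.61 and 12.2 CPM in KO day 3. Its groups overlapped at both days. The day 3 log2 difference was -0.90 ± 0.36, and -0.24 ± 0.21 without WT replicate 3. A pseudogene copy of *Bambi* was counted at 1 to 11 reads per sample, and reads shared by such copies are not in the counts.

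**Figure D2:**
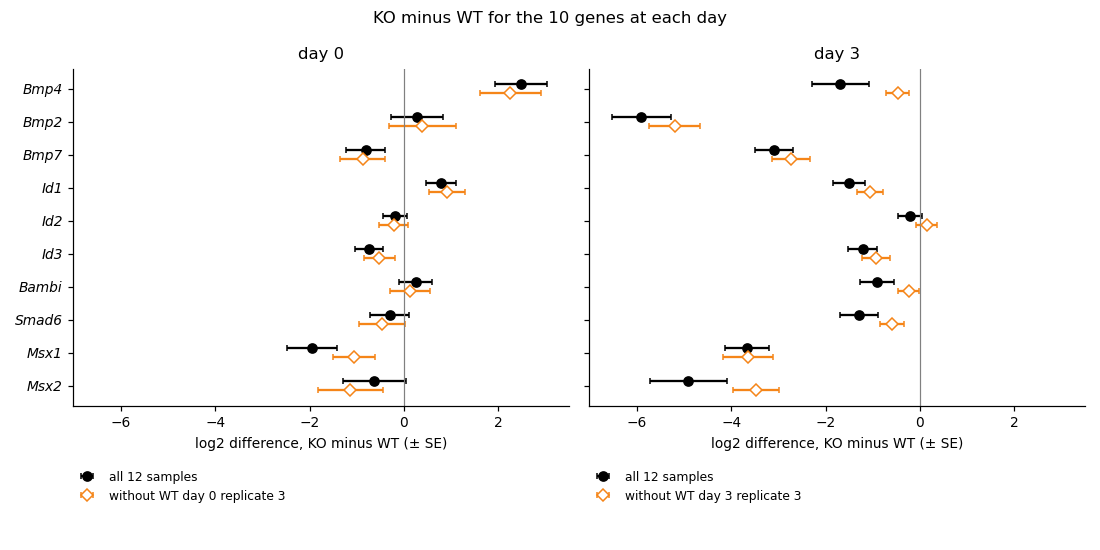
Log2 difference KO minus WT with its SE for the 10 genes at day 0 and day 3, from all 12 samples (black) and without WT replicate 3 of that day (orange). *Bmp4* lies at 2.48 at day 0 and moves from -1.68 to -0.47 at day 3 without that library, while *Bmp2*, *Bmp7*, *Id1*, *Id3*, *Msx1* and *Msx2* stay at -0.93 or lower at day 3.

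Counted over the 10 genes, KO was above WT without overlap for 1 gene at day 0 (*Bmp4*), below for 2 (*Id3* and *Msx1*), and overlapping for 7. Among all tested genes 16.8% were above and 17.4% below without overlap at that day. At day 3 KO was below WT without overlap for 7 of the 10, above for 0, and overlapping for 3 (*Bmp4*, *Id2* and *Bambi*), where 23% of all tested genes were below and 20.8% above. The median log2 difference of the 10 was -0.25 at day 0 and -1.60 at day 3, beside -0.01 and -0.002 over all tested genes. Because the genes were selected on these differences, the counts describe them and are read no further. In the values at day 0, then, none of the 5 Id and Msx genes stood above WT without overlap beside the higher *Bmp4*. For *Id1* that overlap came from WT replicate 3 alone, and *Id1* was higher in KO in 3 of 3 pairs of the same replicate number. At day 3 *Id1*, *Id3*, *Msx1* and *Msx2* were below WT while *Bmp4* itself overlapped with it.

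Per kilobase of exon the order of the genes differed between groups. In CPM divided by the exon length in kilobases (FPKM), *Id1* was highest in WT day 0 with a mean of 38.5, followed by *Id3* at 25.1, *Id2* at 12.7 and *Bmp4* at 7.36. In KO day 0 *Bmp4* stood second with a mean FPKM of 40.6 (range 31.0 to 53.6) behind *Id1* at 62.5 (39.4 to 79.1), and these ranges overlapped, whereas *Id3* at 14.7 (14.3 to 15.4) lay below both. In KO day 3 *Id3*, *Id1* and *Id2* had mean FPKM levels of 11.9, 10.8 and 9.43 with overlapping ranges, and the ranges of *Bambi* at 2.21 and *Bmp4* at 2.19 overlapped too. *Msx2* and *Bmp2* were lowest there, at 0.081 and 0.091, and their ranges overlapped.

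The genes with values most like those of *Bmp4* over the 12 samples, by Pearson's r of log2(CPM + 1), were *Tmsb10* (0.951), *Casq2* (0.951), *Gm15675* (0.949), *Wdr13* (0.940) and *Sox7* (0.939). Of the other members *Id1* was most alike, with r of 0.896 and rank 55 among tested genes. *Id2* had 0.476, *Msx2* 0.390, *Bambi* 0.347, *Bmp2* 0.229 and *Id3* 0.179, and *Smad6*, *Msx1* and *Bmp7* had -0.017, -0.152 and -0.211. *Sox7*, an endoderm marker, was at 1.15 to 1.96 CPM in WT day 0, 5.77 to 13.5 CPM in KO day 0, 0.28 to 12.9 CPM in WT day 3 and 0.70 to 1.31 CPM in KO day 3, its high WT day 3 value being that of replicate 3. These correlations describe 12 points that share groups and libraries.

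The change from day 0 to day 3 was tested in each genotype (edgeR quasi-likelihood test, Benjamini-Hochberg adjusted over all tested genes). The fit held a block of the replicate number shared by both days, although the numbers did not pair samples across days. In WT, 4 of the 9 genes other than *Bmp4* rose and 0 fell, beside 30.7% and 25.5% of all tested genes. None fell at an unadjusted p of 0.05 in edgeR, in DESeq2 or in limma either. *Bmp2* rose by a log2 difference of 3.77 ± 0.51 (edgeR adjusted p = 0.000206), *Bmp7* by 2.68 ± 0.40 (0.000356), *Msx1* by 3.09 ± 0.44 (0.000278) and *Smad6* by 1.52 ± 0.41 (0.00942). Without the block these edgeR adjusted p-values were 0.00128, 0.000541, 0.00632 and 0.0121. The *Smad6* call was lost without WT day 0 replicate 3 (edgeR adjusted p = 0.0535), and the difference was 0.80 ± 0.26 without WT day 3 replicate 3 (0.0279). In WT, *Msx2* had 1.54 ± 0.66 (edgeR adjusted p = 0.0701) and *Bambi* 0.90 ± 0.36 (0.0559), and both passed without the replicate block (0.0312 and 0.0375) and in DESeq2 (0.0352 and 0.0326). Without WT day 3 replicate 3 they were at 0.32 ± 0.40 and 0.23 ± 0.22 (edgeR adjusted p = 0.530 and 0.386), so both differences rested largely on that library. The 3 Id genes had differences between -0.19 and 0.17, and of -0.69, -0.55 and -0.16 for *Id1*, *Id2* and *Id3* without it (edgeR adjusted p = 0.0660, 0.0652 and 0.683).

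In KO, 0 of the 9 genes rose and 3 fell, beside 29.4% and 27.2% of all tested genes. At an unadjusted p of 0.05 in edgeR 1 gene rose, *Msx1*, which DESeq2 called and limma did not. *Id1* fell by 2.48 ± 0.34 on the log2 scale (edgeR adjusted p = 0.000174, or 0.000932 without the replicate block), and its adjusted p was at most 0.00126 with any 1 sample left out. *Bmp2* fell by 2.42 ± 0.67 (edgeR adjusted p = 0.0111) and *Msx2* fell by 2.74 ± 0.86 (0.0205). Those calls came from low levels and were lost together without KO day 0 replicate 2 or without KO day 3 replicate 3, with adjusted p up to 0.0803 and 0.0926, and the *Msx2* call also without KO day 3 replicate 2. Without the replicate block the *Bmp2* call was lost (edgeR adjusted p = 0.0544), and in limma the *Msx2* call (0.0772). *Msx1* had 1.37 ± 0.56 in KO (edgeR adjusted p = 0.0569), and it was called higher without WT day 0 replicate 1, WT day 0 replicate 3, KO day 0 replicate 1 or KO day 3 replicate 3, and in DESeq2 (adjusted p = 0.0192). *Bmp7*, which rose in WT, had 0.39 ± 0.42 in KO (edgeR adjusted p = 0.450). *Id2* and *Id3* had -0.20 and -0.31, with values that overlapped between the days. Whether the change differed between the genotypes was not tested for these genes, because that difference is the one they were selected on.

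**Figure D3:**
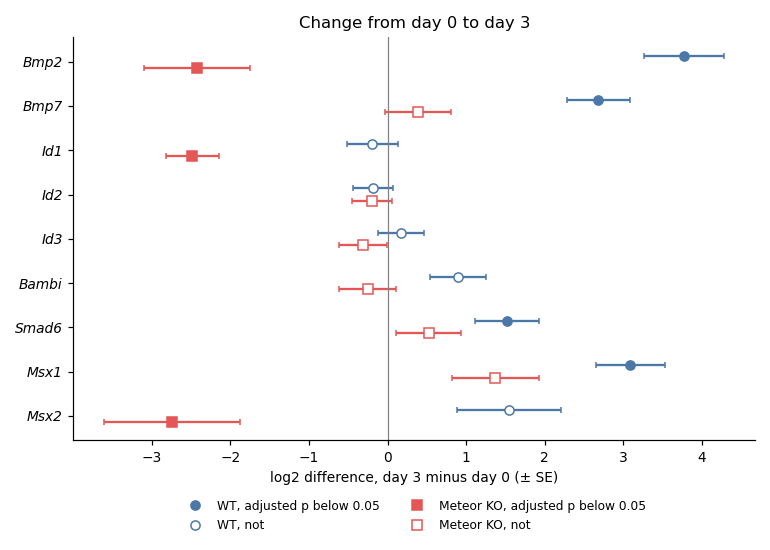
Log2 difference day 3 minus day 0 with its SE in WT (blue circles) and KO (red squares) for the 9 genes other than *Bmp4*. Filled symbols passed an adjusted p of 0.05 in edgeR: *Bmp2*, *Bmp7*, *Smad6* and *Msx1* rose in WT, and *Bmp2*, *Id1* and *Msx2* fell in KO.

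Of the 56 other pathway genes, in 6 lists by role, 47 passed the filter on low counts and were tested. At day 0, 2 were higher and 7 lower in KO, beside 9.56% and 10.9% of all tested genes. With a replicate block within each day 3 were higher and 11 lower, beside 16.8% and 18% of all tested genes. With that block and without WT day 0 replicate 3, 5 were higher and 4 lower. The share of all tested genes was not counted for that last fit. With the shared block the lower count at day 0 fell when single libraries were left out: it was 2 without WT day 0 replicate 3, 3 without KO day 0 replicate 2, and 4 without WT day 0 replicate 2, KO day 0 replicate 1, KO day 0 replicate 3 or KO day 3 replicate 2. The higher count was 0 without KO day 0 replicate 3 and 1 without any of 7 other libraries, which were the WT day 0 replicates 1, 2 and 3, KO day 0 replicate 2 and the KO day 3 replicates 1, 2 and 3. Calls over all tested genes fell too, so these losses are not particular to the pathway genes. In either direction they went from 3201 to 1712 without WT day 0 replicate 3, 1759 without KO day 0 replicate 2 and 1783 without KO day 0 replicate 3.

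At day 3, 1 pathway gene was higher and 19 were lower in KO, beside 14.3% and 16.7% of all tested genes. With the block within each day 3 were higher and 23 lower, beside 22.5% and 24.4%. The lower count was 12 without WT day 3 replicate 3, 11 of them among the 19, and 11 without KO day 3 replicate 3. With the block within each day and without WT day 3 replicate 3 it was 19, of which 16 were among the 19. The higher count was 2 without WT day 3 replicate 2 or replicate 3. Over all tested genes, day 3 calls in either direction went from 4846 to 2907 without KO day 3 replicate 3. The 7 streak and early mesoderm markers were all lower in KO at day 3, and their part in these differences was not tested.

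The other ligands were mostly low: 6 of 11 did not pass the filter. *Bmp8a*, a ligand of germ cells, was at 0.87, 1.25 and 1.96 CPM in WT and 1.74, 3.64 and 4.90 CPM in KO at day 0 and was higher in KO by 1.296 ± 0.27 (edgeR adjusted p = 0.00893), with reads shared with its near-identical copy *Bmp8b* not in the counts. *Bmp8b* itself was at 4.91, 3.71 and 5.34 CPM in WT and 2.41, 3.03 and 1.84 CPM in KO at day 0, lower without overlap (-0.96 ± 0.36, edgeR adjusted p = 0.0872), and was called lower with the block within each day (0.0380). The *Bmp8a* call was lost without KO day 0 replicate 3 (edgeR adjusted p = 0.0531). *Bmp5* was lower in KO at day 3 (-6.45 ± 1.12, edgeR adjusted p = 0.00402), from 22.1 CPM in WT replicate 3 and 0.89 and 0.19 CPM in the other WT libraries against at most 0.10 CPM in KO. The call was lost without that WT library (-2.99, edgeR adjusted p = 0.0678) or without KO day 3 replicate 3 (0.108).

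Among 11 receptors and co-receptors 2 were lower at day 0 and 4 at day 3, beside 10.9% and 16.7% of all tested genes. None was higher at either day, also at an unadjusted p of 0.05 in this fit and in DESeq2 and limma. With the block within each day the type II receptor *Acvr2b* was called higher at day 3 (0.28 ± 0.09, edgeR adjusted p = 0.0241, against 0.164 with the shared block). *Bmpr2*, the type II receptor of BMPs, was lower at both days, with 60.1, 71.0 and 74.2 CPM in WT and 47.2, 54.8 and 54.2 CPM in KO at day 0 (-0.39 ± 0.07, edgeR adjusted p = 0.00500). At day 3 it was at 83.2, 92.6 and 103 CPM in WT and 60.6, 68.1 and 68.6 CPM in KO (-0.50 ± 0.07, edgeR adjusted p = 0.000955), and both calls held with each sample left out in turn. *Bmpr1b*, a type I receptor, was at 5.51, 4.02 and 6.61 CPM in WT and 1.06, 1.49 and 1.33 CPM in KO at day 0 (-2.06 ± 0.28, edgeR adjusted p = 0.00105), but overlapped at day 3 (-0.14 ± 0.25, or -0.36 ± 0.25 without WT day 3 replicate 3). The more abundant type I receptor *Bmpr1a*, at 105 to 139 CPM at day 0 and 199 to 236 CPM at day 3, overlapped between KO and WT at both days.
At day 3 the type I receptor *Acvrl1* was lower in KO (-3.11 ± 0.59, edgeR adjusted p = 0.00359), with 0.84, 1.93 and 9.003 CPM in WT and 0.20 to 0.71 CPM in KO. The type II receptor *Acvr2a* had -0.58 ± 0.15 (edgeR adjusted p = 0.0159) and the co-receptor *Rgmb* -0.76 ± 0.24 (0.0375). The *Acvr2a* call was lost without WT day 3 replicate 3 (edgeR adjusted p = 0.0760), KO day 3 replicate 1 or KO day 3 replicate 3. The *Rgmb* call was lost without any of 6 libraries (edgeR adjusted p up to 0.184), which were WT day 3 replicates 2 and 3, KO day 0 replicate 3 and the KO day 3 replicates.

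Of the 4 signal SMADs none was called at day 0, also at an unadjusted p of 0.05 in edgeR and in DESeq2 and limma. At day 3, 2 were lower, beside 16.7% of all tested genes. *Smad1*, which carries the signal of BMP receptors, was at 67.9, 69.5 and 81.1 CPM in WT and 32.4, 30.8 and 29.6 CPM in KO at day 3 (-1.23 ± 0.11, edgeR adjusted p = 9.68e-05). From day 0, where it was at 12.2 to 17.6 CPM in all 6 libraries, *Smad1* rose in both genotypes, by 2.21 ± 0.12 in WT and 1.18 ± 0.11 in KO (edgeR adjusted p = 1.02e-06 and 1.78e-05). *Smad5*, its close relative, was lower by a smaller amount at day 3 (-0.24 ± 0.08, edgeR adjusted p = 0.0433), a call that was lost in 10 of 12 leave-one-out fits (edgeR adjusted p up to 0.233) and held without WT day 0 replicate 1 or KO day 3 replicate 1. *Smad4*, the partner shared with other TGF-beta signals, had -0.05 ± 0.10 at day 0 and -0.13 ± 0.10 at day 3 with overlapping values.

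Of the 4 intracellular inhibitors *Ski*, a corepressor that binds SMADs, was the only one called, and was higher in KO at day 3, with 132, 158 and 166 CPM against 94.96, 116 and 107 CPM in WT (0.52 ± 0.09, edgeR adjusted p = 0.00230). The share of all tested genes called higher at day 3 was 14.3%. At day 0 none of the 4 passed an unadjusted p of 0.05 in edgeR, and none was called by DESeq2 or limma. *Smad7*, an inhibitory SMAD like *Smad6*, had -0.31 ± 0.20 at day 0, or -0.05 ± 0.19 without WT day 0 replicate 3, and 0.17 ± 0.20 at day 3 with overlapping values.

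Of the 13 secreted antagonists tested 7 were called lower at day 3, beside 2 of 4 signal SMADs and 5 of 10 other target genes. The share over all tested genes was 16.7%. *Cer1*, an antagonist of Nodal, WNT and BMP ligands, was at 111, 45.6 and 80.0 CPM in WT and 0.45, 0.57 and 0.25 CPM in KO (-7.53 ± 0.31, edgeR adjusted p = 7.41e-07). *Bmper*, which binds BMPs in the extracellular space, had 7.32, 5.97 and 30.1 CPM in WT and 0.23 to 0.30 CPM in KO (-5.60 ± 0.64, edgeR adjusted p = 0.000302). *Nog*, which encodes Noggin, was at 1.07, 2.36 and 5.10 CPM in WT and at 0 to 0.29 CPM in KO (-4.53 ± 0.49, edgeR adjusted p = 0.000225). The ligands *Bmp2* and *Bmp7* and these named antagonists were thus low in the same KO libraries. *Bmp4* overlapped between KO and WT there, and 6 of the 13 antagonists were not called.
*Chrd*, which encodes Chordin, was called in opposite directions at the days. It was at 2.95, 4.44 and 4.60 CPM in WT and 6.61, 8.32 and 8.73 CPM in KO at day 0 (0.98 ± 0.29, edgeR adjusted p = 0.0400), and at 54.7, 29.9 and 28.4 CPM in WT and 4.15, 5.17 and 4.50 CPM in KO at day 3 (-3.03 ± 0.30, edgeR adjusted p = 0.000140). The day 0 call was lost in 8 of 12 leave-one-out fits (edgeR adjusted p up to 0.150), those without a WT day 0, a KO day 3 or the KO day 0 libraries 2 and 3. *Chrdl1*, a relative of Chordin, and *Dand5*, a Nodal antagonist, were lower in KO at day 0 (-2.03 ± 0.47 and -1.42 ± 0.42, edgeR adjusted p = 0.0133 and 0.0405), at levels of at most 1.37 CPM. The *Chrdl1* call was lost without WT day 0 replicate 3 (edgeR adjusted p = 0.0646) or KO day 0 replicate 2. That of *Dand5* was lost in 8 of 12 leave-one-out fits (up to 0.1403) and held without WT day 3 replicate 3, KO day 0 replicate 3, KO day 3 replicate 1 or KO day 3 replicate 3.

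Of the 10 tested target genes outside the members 3 were lower in KO at day 0 and 5 at day 3, beside 10.9% and 16.7% of all tested genes. None was higher in edgeR with the shared block. With the block within each day 5 were lower at day 0 and 7 at day 3, beside 18% and 24.4% of all tested genes. With that block, 0 were lower at day 0 without WT day 0 replicate 3, and 4 at day 3 without WT day 3 replicate 3. With that block and all samples *Dusp9*, a phosphatase of MAP kinases, was called higher at both days (0.64 ± 0.18 and 0.80 ± 0.19, edgeR adjusted p = 0.0224 and 0.00746, against 0.184 and 0.106 with the shared block). *Dusp9* was at 131, 115 and 66.6 CPM in WT and 181, 202 and 104 CPM in KO at day 0, and at 33.7, 33.4 and 57.6 CPM in WT and 59.4, 91.6 and 64.3 CPM in KO at day 3. At an unadjusted p of 0.05 in the fit with the shared block none was higher at day 0 and 1, *Dusp9*, at day 3, which DESeq2 called and limma did not. *Id4*, the remaining Id gene, was lower at day 0, with 6.01, 4.54 and 8.88 CPM in WT and 3.36, 1.87 and 2.25 CPM in KO (-1.33 ± 0.31, edgeR adjusted p = 0.0148), and overlapped at day 3 (0.34 ± 0.31, or 0.62 ± 0.34 without WT day 3 replicate 3). *Cdx2*, a caudal-type homeobox gene of posterior mesoderm and trophectoderm, was lower at both days (-2.13 ± 0.65 and -4.94 ± 0.67, edgeR adjusted p = 0.0441 and 0.000656). At day 0 its groups overlapped, with 0.38, 0.78 and 5.07 CPM in WT and 0.11 to 0.55 CPM in KO. *Tfap2a*, an AP-2 transcription factor, was lower at day 0 (-1.57 ± 0.46, edgeR adjusted p = 0.0380), at 0.06 to 1.43 CPM.
Without WT day 0 replicate 3 none of the day 0 calls of *Id4*, *Cdx2* and *Tfap2a* held (edgeR adjusted p = 0.0666, 0.285 and 0.156). The *Id4* call was also lost without KO day 0 replicates 2 or 3, the *Cdx2* call without WT day 0 replicate 2, KO day 0 replicates 1 or 3 or any KO day 3 replicate, and the *Tfap2a* call without WT day 0 replicate 2, any KO day 0 replicate or KO day 3 replicate 2. At day 3 the zinc finger gene *Gata3* was lower (-4.21 ± 0.73, edgeR adjusted p = 0.00234), with 0.84, 0.67 and 9.96 CPM in WT and 0.06 to 0.29 CPM in KO, and held without WT replicate 3 (0.00959). *Gata2* had -2.65 ± 0.90 (edgeR adjusted p = 0.0479) and lost its call in 10 of 12 leave-one-out fits (edgeR adjusted p up to 0.253, 0.194 without WT day 3 replicate 3), all but those without WT day 3 replicates 1 or 2.

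**Figure D4:**
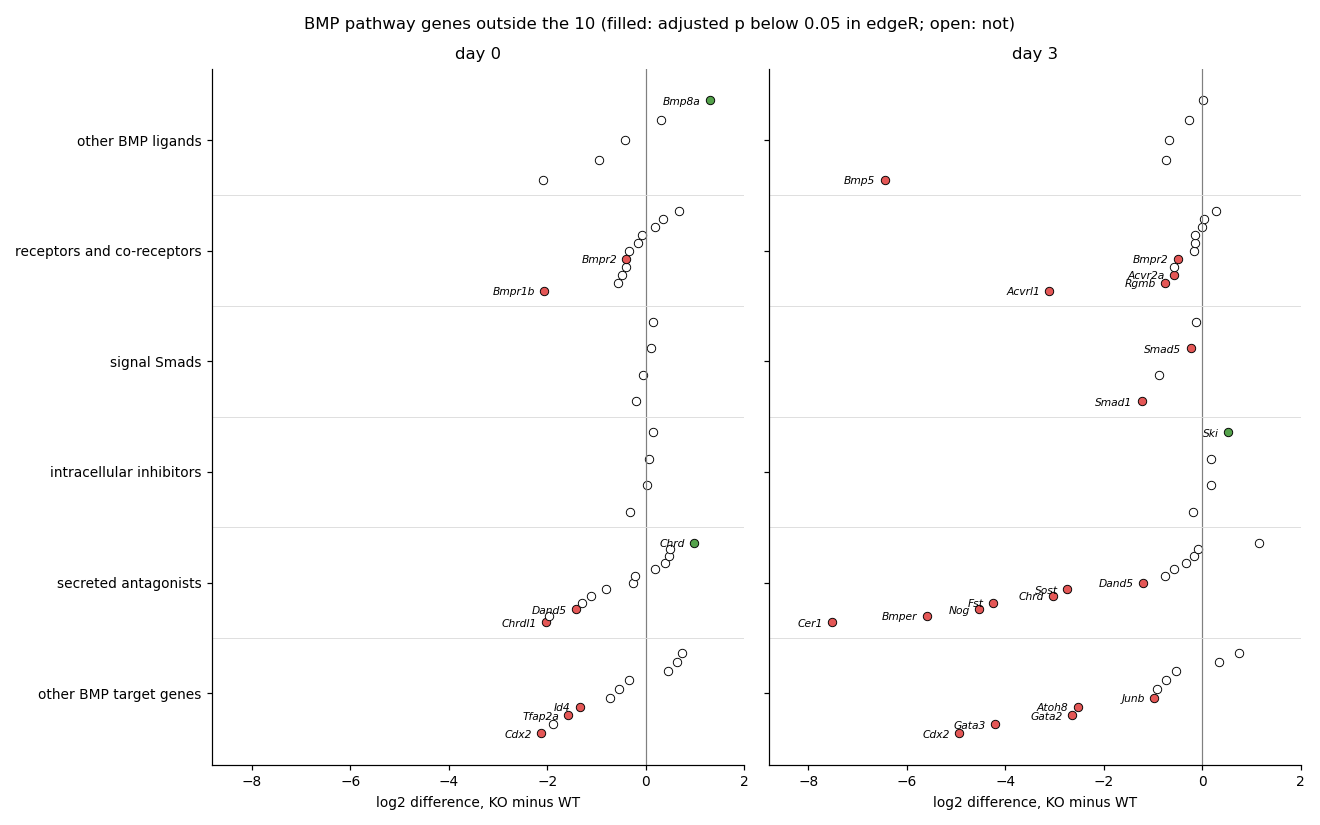
Log2 difference KO minus WT of the 47 tested pathway genes outside the 10, by list and day, sorted within each list. Filled points passed an adjusted p of 0.05 in edgeR (red lower, green higher) and are named: 7 lower and 2 higher at day 0, and 19 lower and 1 higher at day 3.

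Over time, 22 of the 47 genes rose and 10 fell in WT, beside 30.7% and 25.5% of all tested genes, and 14 rose and 14 fell in KO, beside 29.4% and 27.2%. Among the 13 antagonists 8 rose and 2 fell in WT, whereas 2 rose and 5 fell in KO. The number that fell in KO was 8 over the 6 lists without KO day 0 replicate 2. Among 11 receptors 6 rose in WT and 7 in KO, and among 4 signal SMADs 3 rose in each. The difference of the KO effect between the days, tested as an interaction, passed for 2 of the 47 upwards and 9 downwards, where 15.5% of all tested genes passed in either direction. With the block within each day these counts were 5 and 15. Beside them 4889 of the 15673 tested genes passed in either direction, against 2436 with the shared block.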

How the data were processed

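Single-end RNA-seq reads from 12 samples were processed by the authors, who used cutadapt 1.3 for trimming, STAR 2.4.2a for alignment to GRCm38 and HTSeq 0.6.1 for counting per gene. The deposited values are raw counts. Reads aligned to several places (36.52% to 44.09% of the alignments listed) are not in the gene counts, which lowers genes with near-identical copies. The library kit keeps strand, but the strand setting of the counting is not given in the sources used here. *Bmp4* overlaps genes of the opposite strand with at most 8 reads per sample.

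Gene symbols came from GENCODE vM21. Genes above 1 CPM in any sample were fitted with edgeR 4.0.16 (R 4.3.3, quasi-likelihood F test, TMM scaling). The fit had 4 groups and a block of the replicate number shared by both days. The study's methods name a batch factor without saying what it was, and the replicate number was used in its place. P-values were adjusted by Benjamini-Hochberg over all tested genes and called at 0.05. SEs are the log2 difference divided by the square root of F. FPKM values were computed from CPM and exon length. The fit was also run on simulated counts. These held no effect of replicate number and no library standing apart, so they do not bear on calls that rest on single libraries.

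The members and lists were chosen with earlier results of these data known. Named are the 10 members, 9 fixed pathway genes, up to 3 called genes per list and day with the largest difference, and the 5 genes most like *Bmp4*; *Bmp8b*, *Acvr2b*, *Dusp9* and single cell type markers were named after their values were seen. A replicate number paired samples within a day (deviations from group means correlated at 0.341 to 0.732 in 6 pairs) and not across days (mean -0.055), so a block within each day is also given where it changes a count by over 1.5 times. Alternatives were fits without the block, of the 6 samples compared, with RLE scaling, with other filters, with DESeq2 1.42.0 and limma 3.58.1, with a fold minimum and with each sample left out; fits without both WT samples numbered 3 and the within-day block without either were added after seeing the data. All 12 samples were used, with no column left unmapped.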

Additional observations from a re-analysis of the deposited data

Results flagged for a closer look

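The KO effect differed between the days for 10 of the pathway genes named above, by the interaction term of the edgeR fit (day 3 minus day 0, log2, adjusted over all tested genes). It was more negative at day 3 for *Bmp8a* (-2.04, edgeR adjusted p = 0.0179), *Acvrl1* (-3.79, 0.0106), *Smad1* (-1.03, 0.00309), *Smad5* (-0.39, 0.0407), *Nog* (-3.72, 0.00692), *Chrd* (-4.01, 0.000563), *Bmper* (-5.35, 0.00433) and *Gata3* (-3.66, 0.0323). It was more positive at day 3 for *Bmpr1b* (1.92, edgeR adjusted p = 0.00793) and *Id4* (1.68, 0.0297). With 1 sample left out, the *Bmp8a* call was lost without WT day 3 replicate 3, KO day 0 replicate 2 or KO day 3 replicate 3 (edgeR adjusted p up to 0.0739). The *Smad5* call was lost in 11 of 12 such fits, all but that without KO day 3 replicate 1 (up to 0.139). The *Id4* call was lost in 6, those without WT day 0 replicates 2 or 3, KO day 0 replicates 2 or 3, or KO day 3 replicates 1 or 2 (up to 0.0813). The *Gata3* call was lost in 7, those without WT day 0 replicates 2 or 3, WT day 3 replicate 3, KO day 0 replicates 1 or 2, or KO day 3 replicates 2 or 3 (up to 0.144). The other calls held in each of the 12 fits. The 10 members were not tested for this difference, since they were selected on it.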

How the results depend on the processing

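Calls near the threshold depend on single libraries, and genes under 1 CPM rest on few reads. Of 98 log2 differences followed gene by gene under 21 other settings, 21 turned sign in at least 1 setting, among them *Id2* at day 3 and *Id3* in WT over time, and 0 of these 21 were called. In 148 combinations of a difference and a setting the value moved or changed side of the threshold. Without the replicate block, the pathway counts were 1 higher and 4 lower at day 0, and 5 negative interactions. The replicate block within each day gave 11 lower at day 0, 3 higher at day 3, 5 positive and 15 negative interactions, and 5447, 7347 and 4889 of all genes called at day 0, at day 3 and for the interaction. It was not run for day 3 against day 0, since numbers did not pair samples across days. The tests of day 3 against day 0 used the shared block, which assumes such a pairing.

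With the 6 samples compared, pathway counts were 4 higher and 12 lower at day 0 and 3 higher at day 3, 1 member was called higher in KO over time, and 5459 of all genes were called at day 0. limma-voom gave 1 higher at day 0. DESeq2 and no filter on low counts each gave 2 higher at day 3 and 1 member higher in KO over time. A log2 minimum of 1 gave 1 higher at day 0, 0 higher at day 3 (against 1 in edgeR with no minimum), 11 and 6 genes rising in WT and KO, and 1398, 2065, 4304, 4535 and 1494 of all genes in the order day 0, day 3, WT, KO and interaction. The counts over all genes were 3201, 4846, 8812, 8864 and 2436 with no minimum.

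Leaving out samples (1 at a time, or both WT samples numbered 3) gave 0 to 3 higher and 2 to 7 lower at day 0, 1 to 2 higher and 10 to 18 lower at day 3, 18 to 23 rising and 8 to 11 falling in WT, 12 to 15 rising and 8 to 15 falling in KO, and 1 to 3 positive and 5 to 9 negative interactions. Members gave 3 to 6 rising and 0 falling in WT, and 0 to 1 rising and 1 to 3 falling in KO. Over all genes the ranges were 1687 to 3470 at day 0, 2767 to 5077 at day 3, 7271 to 8690 in WT, 7521 to 9082 in KO and 1381 to 2398 for the interaction. The causes of these changes were not tested.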
